A study of Mus musculus with 20 samples.

Results

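Elastic fibre and microfibril genes were examined in condylar heads of the temporomandibular joint (TMJ), where the lower jaw meets the skull. The 10 genes were chosen by name as components of elastic fibres, or as substrates or partners of lysyl oxidases. Earlier results of these data were known when these genes were chosen. They are *Eln*, *Fbn1*, *Fbn2*, *Fbln1*, *Fbln2*, *Fbln5*, *Efemp2*, *Mfap2*, *Mfap4* and *Mfap5*, and they make up 10 of the 54532 genes in the count table. RNA-seq was performed on 8 Control libraries and 12 libraries labelled LOXL2_KO. Every mouse carried *Loxl2* flanked by loxP sites (*Loxl2* fl/fl) and the inducible Cre recombinase Acan-CreERT2, including the controls. Control mice received vehicle and LOXL2_KO mice received tamoxifen at 75 mg/kg by injection on 5 consecutive days and then once a month, beginning at an age of 6 months, and both were killed 4 months later. The drug and the deletion therefore cannot be told apart. Cre was driven by the aggrecan promoter, so the deletion was aimed at aggrecan-expressing cells such as chondrocytes, whereas the tissue sequenced was the whole condylar head with some of the bone beneath its cartilage. The vehicle arm had 4 male and 4 female mice and the tamoxifen arm 6 of each, but the labels do not give the sex of a library. The Y chromosome genes *Ddx3y*, *Eif2s3y* and *Uty* had a median of 0 in Control. Most Control libraries thus held no counts of them, whereas 4 of 8 vehicle mice were stated to be male. A further Y chromosome gene, *Kdm5d*, had a median above 0 in Control. In LOXL2_KO *Ddx3y* was above 0 in 7 of 12 libraries, and *Eif2s3y* and *Uty* were above 0 in 6 of 12.

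Elastic fibres give tissues recoil. Their core is elastin, which is secreted as soluble tropoelastin and made insoluble when lysyl oxidases, a family that includes the LOXL2 enzyme, oxidise its lysines so that crosslinks form. The core is laid down on microfibrils, long polymers of fibrillin that also hold latent growth factors of the TGF-β family. Fibulins bridge tropoelastin, the crosslinking enzymes and the microfibrils, and small microfibril-associated glycoproteins decorate the fibrillin polymer. In joints, elastic fibres are known from ligament, capsule and the fibrocartilage disc, and fibrillin microfibrils also lie in the matrix around chondrocytes.

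Stretches upstream of 3 genes are given because they belong to the genes on which the results turn: *Efemp2* and *Mfap2*, which had the smallest p-values of the 10, and *Fbln5*, the fibulin against which *Efemp2* is compared below. Each runs 5′ to 3′ on the strand of its gene up to the base before its RefSeq or GENCODE start, whichever came first (RefSeq, GRCm38.p6), and capitals mark the GC box letters GGGCGG on either strand. The *Efemp2* stretch is chr19:5473696-5473945 (plus strand), that of *Mfap2* is chr4:141010174-141010417 (plus strand) and that of *Fbln5* is chr12:101819120-101819369 (minus strand).
Efemp2: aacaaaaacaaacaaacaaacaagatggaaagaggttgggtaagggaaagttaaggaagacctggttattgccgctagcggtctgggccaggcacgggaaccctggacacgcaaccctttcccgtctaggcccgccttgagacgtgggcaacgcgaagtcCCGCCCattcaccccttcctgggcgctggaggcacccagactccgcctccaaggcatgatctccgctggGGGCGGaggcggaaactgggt
Mfap2: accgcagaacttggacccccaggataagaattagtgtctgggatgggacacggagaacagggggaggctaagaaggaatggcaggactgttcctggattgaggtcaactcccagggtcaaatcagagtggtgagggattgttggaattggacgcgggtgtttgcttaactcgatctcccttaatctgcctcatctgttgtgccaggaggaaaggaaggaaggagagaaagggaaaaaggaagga
Fbln5: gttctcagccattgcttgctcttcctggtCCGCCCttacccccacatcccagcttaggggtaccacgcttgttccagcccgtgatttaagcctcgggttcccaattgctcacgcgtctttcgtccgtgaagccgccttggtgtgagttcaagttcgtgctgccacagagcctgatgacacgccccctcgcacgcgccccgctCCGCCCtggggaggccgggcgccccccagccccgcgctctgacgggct
The *Efemp2* and *Fbln5* stretches held 2 GC boxes each and the *Mfap2* stretch held 0. The same letters occurred in 32.7% of the 250 bases before the start of all 32851 promoters in the RefSeq table. The G and C content was 59.2% for *Efemp2*, 51.2% for *Mfap2* and 65.2% for *Fbln5*, against a median of 52.4% over all promoters. The RefSeq table holds other starts of the same genes, whose windows in that table held 5 and 7 GC boxes for *Efemp2*, 2 for *Mfap2* and 0 for *Fbln5*. These matches describe the letters alone. The table matched 6 of the 10 genes, and *Eln*, *Fbn2*, *Mfap4* and *Mfap5* are named without a promoter.

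The deletion was aimed at *Loxl2*, so its level was examined before the 10 genes. *Loxl2* (ENSMUSG00000034205, chromosome 14, 69609068 to 69695834, GRCm38/mm10) ranged from 16 CPM (counts relative to the scaled size of the library) over a median of 70.4 to 103.5 CPM in the 8 Control libraries. In the 12 LOXL2_KO libraries it ranged from 28.8 over a median of 109.7 to 126 CPM. The knockout libraries thus had no less *Loxl2* than Control (log2 fold change 0.64, SE 0.28). This difference did not pass edgeR's quasi-likelihood test (adjusted p = 0.101). By an exact permutation test of the mean log2 CPM, *Loxl2* was higher in LOXL2_KO by 0.77 (exact permutation p = 0.027, for this gene alone). Counts over the whole gene include transcripts that lack deleted exons. Without LOXL2_KO library 12, the lowest of its group, the log2 fold change was 0.74 and passed (edgeR adjusted p = 0.0313). The other 31 alternative settings of the fit gave no call. The lowest Control values, 16 and 29.2 CPM, were those of libraries 8 and 6, which were also the lowest of Control in chondrocyte genes. All directions below are those of the libraries labelled LOXL2_KO against Control.

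Totals ran from 11153820 to 27045668 counts, and the 10 genes together took 0.0151% to 0.0864% of them. Of 11 lists of cell type markers, 3 differed between the groups by an exact permutation test of the mean log2 CPM, adjusted over the lists. The 8 osteoclast genes summed to 152 to 1040 CPM in Control and 508 to 5593 CPM in LOXL2_KO, a difference of 2.31 (exact permutation, adjusted p = 0.00105), the 6 macrophage genes to 36.4 to 206 and 124 to 520 CPM (1.43, exact permutation, adjusted p = 0.00105), and the 5 tendon and ligament genes to 200 to 476 and 419 to 987 CPM (0.36, exact permutation, adjusted p = 0.0475). Of the 5 tendon and ligament genes, 2 passed by themselves in edgeR. LOXL2_KO libraries 4 and 7 had the highest sums of this list (987 and 799 CPM), and no value was computed without them. Chondrocyte genes were present, at 42.5 to 3087 and 457 to 4813 CPM, although *Matn3* and *Cnmd* had medians near 0 and Control libraries 6 and 8 were low (196 and 42.5 CPM, the others at least 1412). Skeletal muscle genes summed to 45910 to 164100 CPM in Control and 32830 to 83580 CPM in LOXL2_KO. Fibroblast genes were at 114 to 318 CPM in Control and, in LOXL2_KO, at 873, 557 and 922 CPM in libraries 4, 5 and 7 against 237 to 370 CPM in the other 9. They were also the 3 lowest of LOXL2_KO in chondrocyte genes (1048, 457 and 901 CPM, the others at least 1521) and in osteoblast and osteocyte genes (617, 279 and 902 CPM, the others at least 1296). These 3 libraries stood apart from the rest of their group, so results that rest on them are also given without them, a choice made after the data were seen. Control libraries 6 and 8 were the lowest of Control in *Efemp2*, *Mfap2*, *Fbln5* and *Mfap4*, though not in *Eln*. Library 8 was also lowest in *Fbn1* (18.4 CPM). The log2 fold change without library 6 or 8 was 1.15 or 1.097 for *Efemp2* and 1.199 or 1.201 for *Mfap2*. Without either library 4 of the 10 genes passed, as with all libraries, and no value was computed with both omitted. The lists of osteoblasts and osteocytes (1.37, exact permutation, adjusted p = 0.0523), skeletal muscle (-0.77, 0.0701), neutrophils (1.70, 0.163), fibroblasts (0.44, 0.230), chondrocytes (0.54, 0.455), adipocytes (-0.61, 0.455), endothelium (-0.11, 0.455) and smooth muscle and pericytes (-0.0022, 0.991) did not pass. The mitochondrial share of counts ran from 15.2% to 23.1% in Control and from 9.06% to 18.3% in LOXL2_KO, with 8 of 12 LOXL2_KO libraries below every Control library, and its part in the results was not tested. In bulk tissue, fewer cells of a type and less RNA per cell cannot be told apart.

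Levels were first compared between the genes, per exon length, as TPM (length-scaled transcript shares of a library). In Control, the fibulins *Fbln1* (32.1 TPM ± 19.7, SD, n = 8) and *Fbln2* (26.7 ± 7.86) and the glycoprotein gene *Mfap4* (22.1 ± 12.6) led. *Mfap2* (13.4 ± 5.73), *Efemp2* (12.7 ± 5.98) and *Mfap5* (11.2 ± 6.97) came next, and *Fbln5* (7.44 ± 3.68), *Fbn1* (7.01 ± 3.58) and *Eln* (6.14 ± 2.67) followed. *Fbn2* was lowest at 0.289 TPM ± 0.288 (SD, n = 8). Most neighbours in this order lay within each other's spread: the gene placed higher was the higher one in 4 or 5 of 8 libraries for 6 of the 9 neighbouring pairs. *Mfap4* was above *Mfap2* and *Eln* above *Fbn2* in 8 of 8 libraries, and *Mfap5* was above *Fbln5* in 7.

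In LOXL2_KO the order began with *Fbln2* (38.2 TPM ± 19.7, SD, n = 12), *Mfap2* (37.1 ± 16.4) and *Efemp2* (33.5 ± 15.99), followed by *Fbln1* (31.0 ± 12.8) and *Mfap4* (29.5 ± 8.51). *Mfap5* (23.0 ± 15.2), *Fbn1* (17.2 ± 9.68), *Fbln5* (11.1 ± 3.91), *Eln* (10.7 ± 3.77) and *Fbn2* (0.615 ± 0.459) came after them. The gene placed higher was the higher one in 5 to 9 of 12 libraries for each neighbouring pair but *Eln* and *Fbn2* (12 of 12). *Fbn2*, the fibrillin best known from development, was thus the least abundant in both groups. The summed level of the 10 genes ran from 61.5 over a median of 148 to 202 TPM in Control and from 119 over 231.5 to 349.6 TPM in LOXL2_KO, and the groups overlapped.

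**Figure D1:**
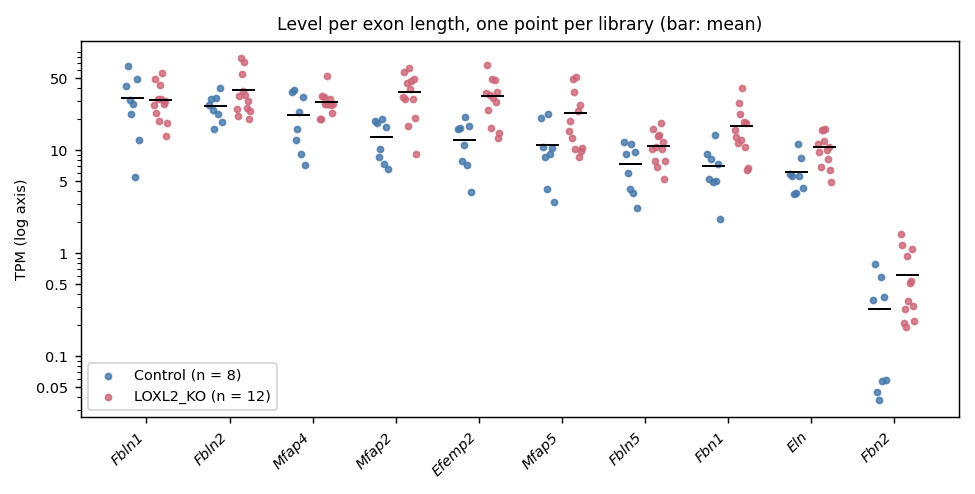
Level of each of the 10 genes in TPM (log axis), ordered by the Control mean, with 1 point per library (8 Control, 12 LOXL2_KO) and a bar at the mean of each group. *Fbln1* and *Fbln2* lead in Control at 32.1 and 26.7 TPM, and *Fbn2* is lowest in both groups, at 0.289 and 0.615 TPM.

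Among the 10 genes, 4 passed the edgeR test, and each of these was higher in LOXL2_KO: *Eln*, *Fbn1*, *Efemp2* and *Mfap2*. Over all 15984 genes tested, 23% passed in either direction, 12% as higher and 11% as lower in LOXL2_KO. The 10 genes and the gene lists below were chosen with earlier results of these data known. Their counts beside these shares are therefore a description and not an independent comparison. Scaling by library totals alone gave 2192 higher and 855 lower genes in place of 1918 and 1755, and 4 of the 10 genes were called under it. The log2 fold change was above 0 for 9 of the 10 genes, with a median of 0.75, beside a median of -0.02 over all genes tested. All 10 genes passed the filter on low counts. The replicates are libraries that the labels list as separate samples, and p-values measure the spread between them.

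Elastin came first among the structural genes. *Eln* (chromosome 5, 134702593 to 134747323, minus strand) ranged from 17.9 over a median of 24.2 to 40.1 CPM in Control and from 23.7 over 36.0 to 61.6 CPM in LOXL2_KO. The groups overlapped, with 4 of 12 LOXL2_KO libraries above every Control library and 11 above the Control median. *Eln* rose 1.53-fold, or by 0.62 on the log2 scale (SE 0.19, edgeR adjusted p = 0.0213). The 3 highest values, 49.7, 61.6 and 57.5 CPM, were those of libraries 4, 5 and 7. Without these the log2 fold change was 0.39 and no longer passed (edgeR adjusted p = 0.0857).

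The fibrillins form the microfibril itself. *Fbn1* (chromosome 2, 125300594 to 125507993, minus strand), the main fibrillin of adult tissue, ranged from 18.4 over 38.7 to 72.8 CPM in Control and from 49.0 over 76.0 to 214 CPM in LOXL2_KO. All 12 LOXL2_KO libraries lay above the Control median and 6 above every Control library. *Fbn1* rose by 1.11 on the log2 scale (SE 0.28, edgeR adjusted p = 0.00845), or 2.16-fold. Libraries 4, 5 and 7 were again the 3 highest, at 137.5, 134 and 214 CPM, and without them *Fbn1* still passed at 0.70 (edgeR adjusted p = 0.0242). *Gm9913*, an antisense gene, overlaps 2442 exonic bases of *Fbn1* but had at most 14 counts in a library.

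*Fbn2* was close to the lower limit of the data, with 5 to 101 counts per library in Control and 22 to 212 in LOXL2_KO. Its level ranged from 0.298 over 1.24 to 5.54 CPM in Control and from 1.24 over 2.48 to 9.82 CPM in LOXL2_KO. Of the 12 LOXL2_KO libraries 11 lay above the Control median and 3 above every Control library, and 4 of 8 Control libraries lay below every LOXL2_KO library. The highest Control value was that of library 2. The log2 fold change of 0.97 (SE 0.53) did not pass (edgeR adjusted p = 0.191). With the muscle or the osteoclast list as a covariate it was -0.04 or -1.09.

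**Figure D2:**
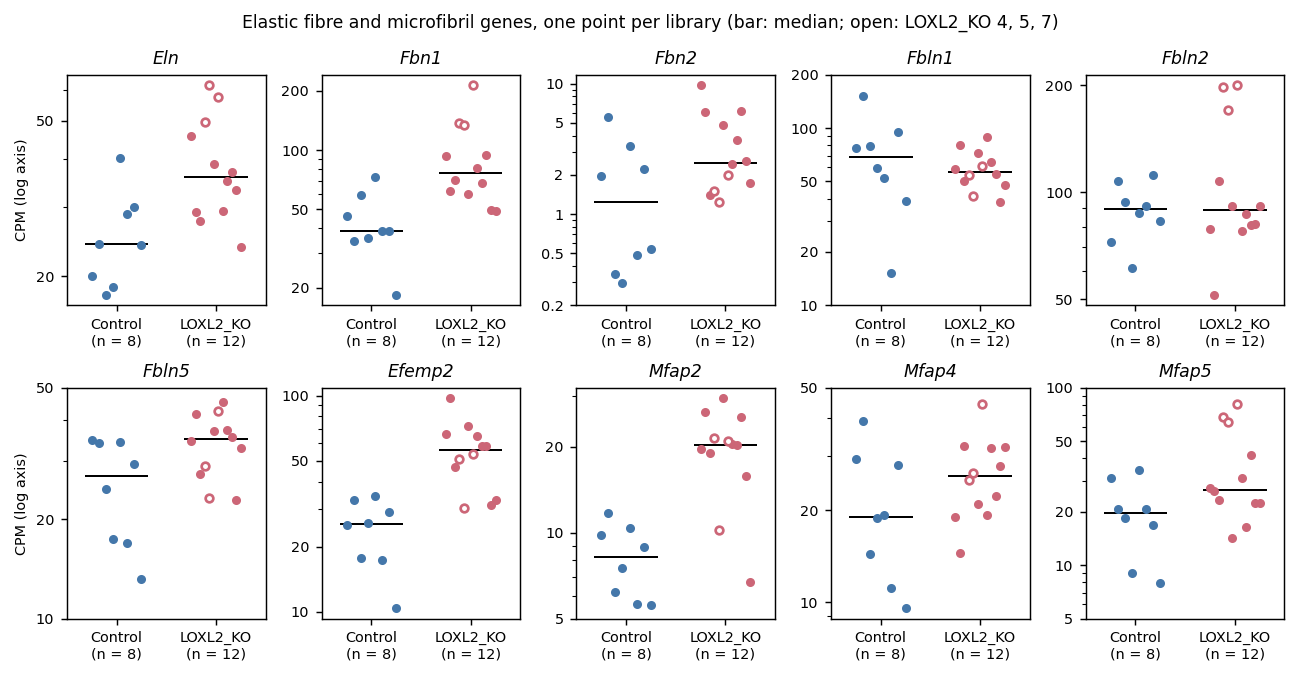
CPM (log axis, a different range in each panel) of the 10 genes, with 1 point per library, a bar at the group median and open points for LOXL2_KO libraries 4, 5 and 7. *Mfap2* and *Efemp2* separate the groups most, with 10 and 9 of 12 LOXL2_KO libraries above every Control library, whereas the open points lead in *Eln*, *Fbn1*, *Fbln2* and *Mfap5*.

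*Efemp2* encodes fibulin-4, which brings lysyl oxidase to tropoelastin and is required for elastic fibre formation. *Efemp2* (chromosome 19, 5473954 to 5482517, plus strand) ranged from 10.4 over 25.5 to 34.3 CPM in Control and from 30.3 over 55.9 to 97.0 CPM in LOXL2_KO. The groups met only at their edges, with 9 of 12 LOXL2_KO libraries above every Control library. *Efemp2* rose by 1.20 on the log2 scale (SE 0.23, edgeR adjusted p = 0.00203), or 2.30-fold, and stood at rank 276 of 15984 by p-value. Its highest values were in libraries 2, 6 and 1 (97.0, 72.5 and 66.3 CPM), not in libraries 4, 5 and 7, and without these it was 1.29. *Mus81* shares 173 exonic bases with *Efemp2* on the opposite strand and had up to 646 counts. As the use of strand in counting was not stated, the origin of reads in that stretch is uncertain.

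*Fbln5*, whose product fibulin-5 tethers tropoelastin and LOXL1 to cells and microfibrils, showed a smaller difference. It ranged from 13.2 over 27.1 to 34.7 CPM in Control and from 22.8 over 34.9 to 45.4 CPM in LOXL2_KO. Of the 12 LOXL2_KO libraries, 10 lay above the Control median and 6 above every Control library. Its difference of 0.41 on the log2 scale (SE 0.18) did not pass (edgeR adjusted p = 0.101).

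*Fbln1* and *Fbln2*, the most abundant fibulins here, also did not pass. *Fbln1*, found in elastic fibres and basement membranes, was the one gene of the 10 with a value below 0. It ranged from 15.2 over 68.5 to 152 CPM in Control and from 38.4 over 56.9 to 88.6 CPM in LOXL2_KO, so that the Control libraries enclosed all the others. The groups differed by -0.26 on the log2 scale (SE 0.27, edgeR adjusted p = 0.497), and by 0.0028 without Control library 2, the highest. *Fbln2*, a fibulin of vessel walls and developing cartilage, ranged from 61.4 over 89.4 to 112 CPM in Control and from 51.5 over 89.0 to 200.0 CPM in LOXL2_KO. The medians were nearly equal, and only libraries 4, 5 and 7, at 197, 170 and 200.0 CPM, exceeded every Control library. On the log2 scale *Fbln2* differed by 0.31 (SE 0.22, edgeR adjusted p = 0.326), and by -0.09 without these 3 libraries.

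*Mfap2* encodes MAGP-1, a small glycoprotein on fibrillin microfibrils that also binds TGF-β. It had the smallest p-value of the 10 genes, at rank 154 of 15984. *Mfap2* (chromosome 4, 141010418 to 141015984, plus strand) ranged from 5.59 over 8.22 to 11.7 CPM in Control and from 6.73 over 20.3 to 29.5 CPM in LOXL2_KO, with 73 to 261 and 133 to 821 counts. In LOXL2_KO, 10 of 12 libraries lay above every Control library, and the exceptions were libraries 12 (6.73 CPM) and 5 (10.2 CPM). *Mfap2* rose by 1.25 on the log2 scale (SE 0.22, edgeR adjusted p = 0.00144), or 2.38-fold, and by 1.30 without libraries 4, 5 and 7.

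*Mfap5* encodes MAGP-2, the other small glycoprotein of this family. It ranged from 7.96 over 19.6 to 34.4 CPM in Control and from 14.2 over 26.7 to 81.3 CPM in LOXL2_KO. Libraries 4, 5 and 7 had 68.5, 64.0 and 81.3 CPM and no other LOXL2_KO library exceeded 41.8 CPM. The log2 fold change of 0.88 (SE 0.34) did not pass (edgeR adjusted p = 0.0681) and was 0.33 without these 3. It did pass in the Wald test of DESeq2, the tool the study used (0.87, adjusted p = 0.0335).

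*Mfap4*, whose product binds both tropoelastin and fibrillin and aids fibre assembly, ranged from 9.57 over 19.0 to 39.0 CPM in Control and from 14.5 over 25.7 to 44.3 CPM in LOXL2_KO. The groups overlapped, with 10 of 12 LOXL2_KO libraries above the Control median and 1 above every Control library, and 3 of 8 Control libraries below every LOXL2_KO library. The difference of 0.31 on the log2 scale (SE 0.24) did not pass (edgeR adjusted p = 0.357). *Mapk7* shares 89 exonic bases with *Mfap4* on the opposite strand and had up to 799 counts, so reads in that stretch are uncertain.

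The fibroblast, osteoclast and muscle lists were also used as covariates, 1 at a time. With the fibroblast list in the model, 3 of the 10 genes passed: *Fbn1* (0.66), *Efemp2* (1.21) and *Mfap2* (1.24), whereas *Eln* (0.39, edgeR adjusted p = 0.0877) did not. Over all genes 16% passed in that model. With the osteoclast list in the model, 0 of the 10 passed, as did 0 of all 15984 genes, with 5 of the 10 and 1257 of all genes at an unadjusted edgeR p under 0.05. The value of *Efemp2* was then 0.19 (edgeR adjusted p = 0.896) and that of *Mfap2* was 0.42 (edgeR adjusted p = 0.723), beside 0.63 for *Eln* and 1.13 for *Fbn1* (edgeR adjusted p = 0.588 for both). The values of *Eln* and *Fbn1* were thus close to those without the covariate and the values of *Efemp2* and *Mfap2* were not. With the muscle list, *Fbn1* (1.07), *Efemp2* (0.80) and *Mfap2* (0.95) passed and *Eln* (0.63, edgeR adjusted p = 0.0729) did not. Over all genes 6.3% passed with the muscle list. The osteoclast list itself separated the groups, and its part in the results cannot be told apart from that of the group.

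Ratios within a library do not depend on scaling, and 5 of them were tested by exact permutation (two-sided, 125970 ways to assign the libraries), with p adjusted over the 5. The ratio of *Efemp2* to *Fbln5*, the fibulins that serve LOX and LOXL1, ran on the log2 scale from -0.49 over a median of -0.03 to 0.56 in Control and from 0.01 over 0.68 to 1.21 in LOXL2_KO. All 12 LOXL2_KO libraries exceeded the Control median. Between the group means the log2 ratio differed by 0.74, from a mean ratio of 0.936 to 1.57 (exact permutation p = 0.000262, adjusted p = 0.00131). It was 0.79 without libraries 4, 5 and 7 (exact permutation, adjusted p = 0.0037).

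None of the other 4 ratios passed. The ratio of *Eln* to *Fbn1*, core against microfibril, had a difference of -0.46 (exact permutation p = 0.0504, adjusted p = 0.126) and was below the Control median in 10 of 12 LOXL2_KO libraries. Without Control library 3, the lowest of Control at -1.72, the difference was -0.61 and passed (exact permutation, adjusted p = 0.0155). It did not pass in the other 23 alternative settings. The highest Control value, 0.39, was that of library 8, which was also lowest in *Fbn1*. The ratio of *Mfap2* to *Mfap5* had a difference of 0.40 (exact permutation, adjusted p = 0.586), with libraries 5, 7, 12 and 4 lowest in LOXL2_KO. Without libraries 4, 5 and 7 it was 0.84 (exact permutation p = 0.0261, adjusted p = 0.0652), and without LOXL2_KO library 6 it was 0.23. The ratios of *Fbn2* to *Fbn1* (0.29, exact permutation, adjusted p = 0.654) and of *Fbln2* to *Fbln1* (0.26, exact permutation, adjusted p = 0.650) varied among Control libraries by more than the groups differed. Without libraries 4, 5 and 7 they were 0.89 (exact permutation, adjusted p = 0.196) and -0.09 (exact permutation, adjusted p = 0.822).

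**Figure D3:**
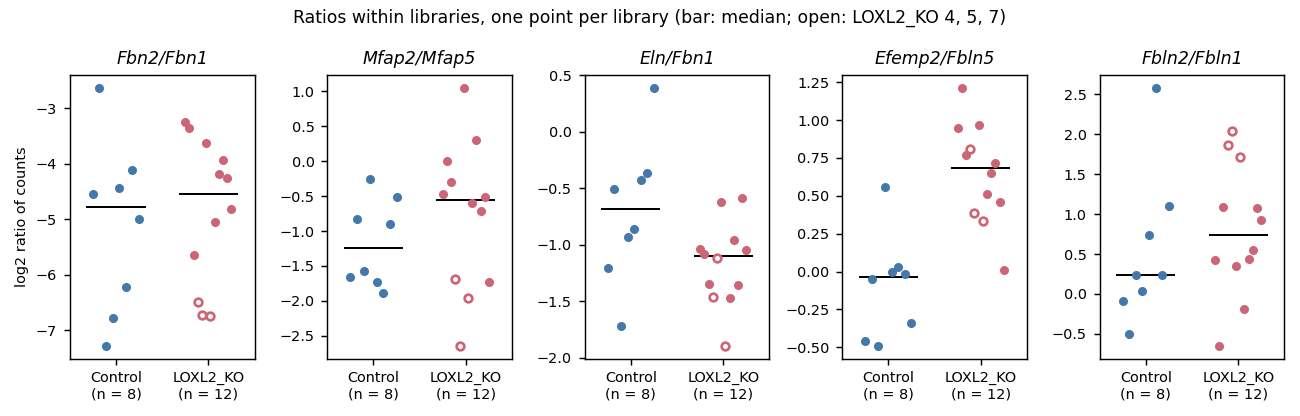
Log2 ratio of counts for 5 pairs of genes, with 1 point per library, a bar at the group median and open points for LOXL2_KO libraries 4, 5 and 7. In the panel of *Efemp2* to *Fbln5* all 12 LOXL2_KO libraries lie above the Control median of -0.03, and in the other 4 panels the groups overlap widely.

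Correlations between the genes were computed within each group. Among 90 correlations of log2 CPM (45 pairs in each group, permutation p-values adjusted over the 90), 2 passed in Control. They were *Efemp2* with *Mfap2* (r = 0.89, exact permutation p = 0.00181, adjusted p = 0.0272; rho = 0.905, exact permutation p = 0.00456, adjusted p = 0.0652) and *Mfap2* with *Mfap4* (r = 0.919, exact permutation p = 0.0026, adjusted p = 0.0335; rho = 0.929, exact permutation p = 0.00223, adjusted p = 0.0502). When the 2 libraries most distant from the median of the first gene were left out, r was 0.889 and 0.82. In LOXL2_KO, 7 pairs passed by Pearson's r and 3 of them also by Spearman's rho. As libraries 4, 5 and 7 formed a cluster of their own, each pair is described over the other 9 libraries, with exact permutation p-values adjusted over 45 pairs.

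Over these 9 libraries 1 pair passed. *Fbln1* and *Fbln5* had r = 0.935 (exact permutation p = 0.000135, adjusted p = 0.00608) and rho = 0.95 (exact permutation p = 0.000353, adjusted p = 0.0159), and r was 0.833 without the 2 farthest libraries. *Fbln1* with *Efemp2* (r = 0.864, rho = 0.867, exact permutation, adjusted p = 0.0614 and 0.101) and *Efemp2* with *Mfap2* (r = 0.772, rho = 0.817, exact permutation, adjusted p = 0.0711 and 0.111) did not pass at this number, nor did *Fbln5* with *Efemp2* (r = 0.778, rho = 0.75, exact permutation, adjusted p = 0.0919 and 0.127). The pairs *Eln* with *Fbn1*, *Fbn1* with *Mfap5* and *Fbn1* with *Fbln2*, which passed over all 12 libraries, had r of 0.544, 0.592 and -0.05 over the 9 (exact permutation, adjusted p = 0.306, 0.284 and 0.953). None of these 3 passed without libraries 4, 5 and 7, where *Fbn1* and *Mfap5* had a rho of 0.767 (exact permutation p = 0.0214, adjusted p = 0.12). Scaling by library totals alone raised the pairs that passed to 11 in Control and 12 in LOXL2_KO.

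**Figure D4:**
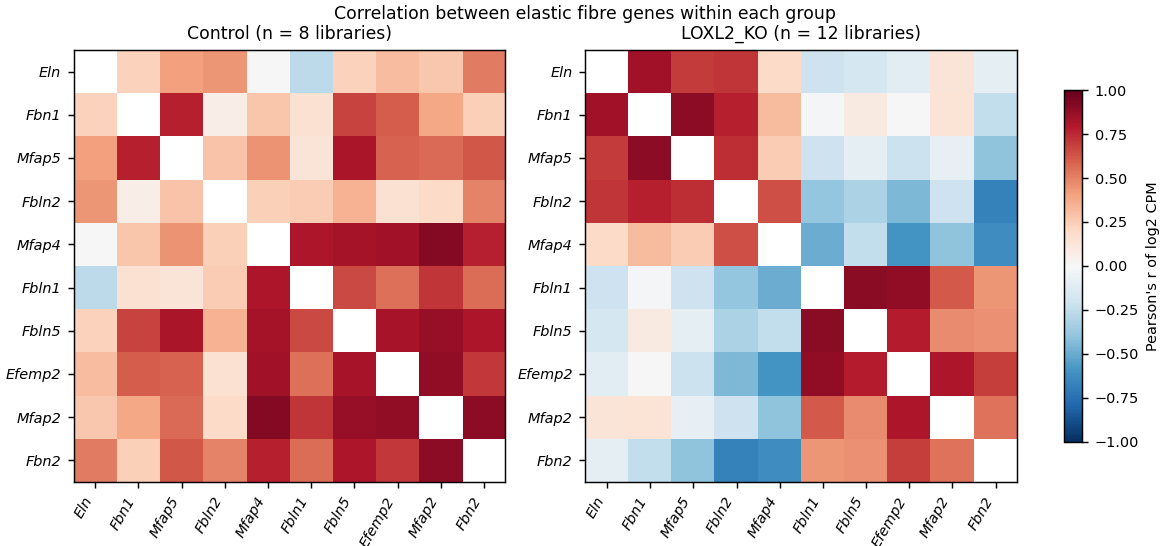
Pearson's r between the log2 CPM of each pair of the 10 genes within Control (8 libraries) and within LOXL2_KO (all 12 libraries), from blue (-1) to red (1). The median r is 0.519 in Control and 0.092 in LOXL2_KO, where *Eln*, *Fbn1*, *Mfap5* and *Fbln2* form one red block and *Fbln1*, *Fbln5*, *Efemp2* and *Mfap2* another.

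The genes whose log2 CPM, after subtraction of the group means, was most like that of 4 members over the 20 libraries are given as a description. For *Fbn1* they were *Scara5* (r = 0.903), *Fstl1* (0.896) and *Col14a1* (0.889), and for *Mfap5* they were *Fstl1* (0.918), *Cgnl1* (0.909) and *Csgalnact1* (0.892). *Scara5* and *Col14a1* were also members of the fibroblast list. For *Eln* they were *Gpr34* (r = 0.917), *Tmem106a* (0.836) and *Ms4a6d* (0.834), of which *Gpr34* and *Ms4a6d* are known from macrophages. For *Fbn2* they were *Tm4sf19* (r = 0.884), *Dcstamp* (0.86) and *Trpa1* (0.849), of which *Dcstamp*, a gene of osteoclast fusion, was in the osteoclast list. The libraries and their scaling are shared by all of these values. LOXL2_KO libraries 4, 5 and 7, the highest of their group in *Eln*, *Fbn1*, *Mfap5* and the fibroblast list, are among the 20. No value was computed without them, so how far these r rest on those libraries was not tested.

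The lysyl oxidases, which crosslink elastin and collagen, were measured beside the 10 genes. Of the 5 lysyl oxidases, 3 rose in LOXL2_KO and none fell, against 12% of all genes called as higher, with a median log2 fold change of 1.09. *Lox*, the founding member, ranged from 9.03 over 29.8 to 77.8 CPM in Control and from 42.8 over 128.7 to 213 CPM in LOXL2_KO. It rose by 1.96 on the log2 scale (SE 0.35, edgeR adjusted p = 0.00144), and 10 of 12 LOXL2_KO libraries exceeded every Control library. *Loxl1*, the oxidase partnered with fibulin-5, ranged from 29.0 over 54.1 to 92.5 CPM and from 55.5 over 124.8 to 147 CPM. On the log2 scale it rose by 1.09 (SE 0.19, edgeR adjusted p = 0.00135).

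*Loxl4* ranged from 1.15 over 7.69 to 12.7 CPM in Control and from 4.61 over 15.99 to 51.0 CPM in LOXL2_KO. It rose by 1.39 (SE 0.45, edgeR adjusted p = 0.0296). The call was lost when Control library 6, Control library 8 or LOXL2_KO library 8 was omitted (edgeR adjusted p = 0.0525, 0.0527 and 0.0554), and with the muscle list as a covariate (0.94, edgeR adjusted p = 0.25). It was also lost in the 16 libraries that share replicate numbers, both with the replicate block (1.097, edgeR adjusted p = 0.265) and without it (1.22, edgeR adjusted p = 0.0855). *Loxl3* (0.55, SE 0.28, edgeR adjusted p = 0.153) and *Loxl2* did not pass in edgeR. Of 60 correlations within groups between *Lox*, *Loxl1* or *Loxl2* and the 10 genes, examined after the data were seen, 0 passed after adjustment by Pearson's r or Spearman's rho (permutation tests, r from -0.48 to 0.912), with 16 by r and 7 by rho at an unadjusted p under 0.05. The enzymes and the 10 genes were thus not shown to move together from library to library. With 8 and 12 libraries per group, the absence of a call does not show that they vary independently.

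**Figure D5:**
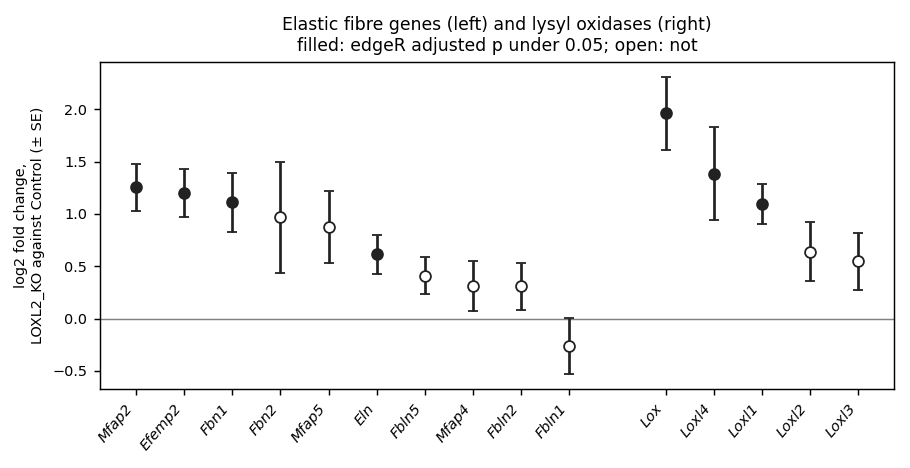
Log2 fold change of LOXL2_KO against Control with its SE (edgeR, 8 and 12 libraries) for the 10 elastic fibre genes on the left and the 5 lysyl oxidases on the right, filled where the adjusted p is under 0.05. Among the 10, *Mfap2*, *Efemp2* and *Fbn1* lie above 1 and *Fbln1* is the one gene below 0, and *Lox* is highest at 1.96.

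Other proteins of fibre assembly were called at about the rate of all genes. Of 24 assembly partners (latent TGF-β binding proteins, emilins, ADAMTS-like proteins, fibronectin and proteoglycans among them), 6 (25%) rose and none fell, against 23% of all genes called in either direction and 12% as higher, with a median log2 fold change of 0.39. By p-value these were led by *Ltbp1* (0.72, edgeR adjusted p = 0.00207), which anchors latent TGF-β to microfibrils, *Emilin1* (0.99, edgeR adjusted p = 0.0112), a glycoprotein at the border of elastin and microfibrils, and *Bgn* (1.01, edgeR adjusted p = 0.0149), the proteoglycan biglycan. The other 3, named after their values were seen, were *Ltbp3* (0.37), *Hspg2* (0.38) and *Vcan* (1.19). The count was 3 (12.5%) without any 1 of Control libraries 3, 6 and 8 and LOXL2_KO libraries 4 and 7, where 15.7% to 21% of all genes were called. It was 1 (4.17%) with the muscle list as a covariate, beside 6.3% of all genes.

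Of 11 proteases known to cleave elastin or to activate those that do, 10 could be tested, 6 rose and none fell, against 12% of all genes called as higher, with a median log2 fold change of 1.91. With the Wald test of DESeq2 the count was 8 of 10, beside 22.3% of all genes in either direction. *Mmp14* (1.78, edgeR adjusted p = 0.00115), a membrane-bound activator of MMP2, had 46.1 to 211 CPM in Control and 174 to 565 CPM in LOXL2_KO. *Ctsk* (2.68, edgeR adjusted p = 0.0014), cathepsin K, had 48.5 to 435 and 251 to 2730 CPM, and *Mmp2* (1.17, edgeR adjusted p = 0.00215), a gelatinase, had 128 to 570 and 438 to 933 CPM. The other 3, named after their values were seen, were *Mmp9* (2.82), *Ctss* (1.27) and *Prtn3* (2.04). *Prtn3* was low, with 0 to 40 counts per library in Control and 12 to 269 in LOXL2_KO. *Ctsk* was also in the osteoclast list, which was higher in LOXL2_KO as a whole. *Mmp7* had 0 counts in every library. *Ctsl* (0.14, edgeR adjusted p = 0.332), cathepsin L, had 93.1 to 117 and 88.9 to 156 CPM and did not pass. *Elane* (2.35, edgeR adjusted p = 0.0592), neutrophil elastase, reached at most 11.9 CPM, and like *Ctsg* (2.38, edgeR adjusted p = 0.0551) and *Mmp12* (0.64, edgeR adjusted p = 0.649) it did not pass.

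Of 9 genes for elastic fibre receptors, 7 rose and none fell, against 12% of all genes called as higher, with a median log2 fold change of 0.65. *Itgb3* (2.33, edgeR adjusted p = 0.00199), an integrin subunit that binds fibrillin and is abundant in osteoclasts, was at 4.59 to 49.2 CPM in Control and 25.5 to 214 CPM in LOXL2_KO. *Glb1* (1.79, edgeR adjusted p = 0.00296), whose splice form is the elastin binding protein, and *Itga5* (0.86, edgeR adjusted p = 0.00397), a fibronectin receptor subunit, came next. The counts cover the whole gene and do not separate that form from the lysosomal β-galactosidase. The other 4, named after their values were seen, were *Ctsa* (0.65), *Itgb1* (0.34), *Itgav* (0.80) and *Itgb5* (0.42), and *Neu1* (0.25) and *Itga8* (0.12) did not pass. With the muscle list as a covariate 3 of the 9 (33.3%) passed, beside 6.3% of all genes.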

How the data were processed

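The members and gene lists were chosen with earlier results of these data known. The authors deposited raw counts per Ensembl gene. Paired-end Illumina reads had been trimmed by an in-house program of the sequencing provider, mapped to mm10 and counted with featureCounts 1.5.0-p3. The aligner, annotation, use of strand and handling of reads with several positions are not given in the sources used here. Symbols and coordinates came from GENCODE M21 (54495 of 54532 identifiers), and TPM used the merged exon length of each gene. Groups came from the sample labels, which give no batch, so no within-batch value was computed. No pair of libraries held like counts (smallest chi-square per degree of freedom 32.9).

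Genes kept by filterByExpr were tested with edgeR 4.0.16 in R 4.3.3 (TMM scaling, quasi-likelihood F-test, two-sided, Benjamini-Hochberg adjustment over 15984 genes, threshold 0.05), and SEs follow from the F statistic. The overall biological coefficient of variation was 37.3%. Log2 CPM used a prior count of 2, and ratios used counts plus 0.5. Correlations used all 40320 pairings for 8 libraries, 100000 resamples for 12 and all 362880 pairings for 9. A count of 3, taken as the detection floor, equals 0.111 to 0.269 CPM, which covers counting error alone. The procedure was tested on simulated counts.

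Named genes are the 10 members, the lysyl oxidases, the 3 called genes with the smallest p-values of each other list, and the 3 genes most like *Eln*, *Fbn1*, *Fbn2* and *Mfap5*. Alternatives were DESeq2 1.42.0 (Wald test, or its size factors), library totals, other filters, the replicate number as a block, marker lists as covariates (with a Y chromosome list) and omission of each library. Omission of LOXL2_KO libraries 4, 5 and 7 together was added after the data were seen.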

Additional observations from a re-analysis of the deposited data

Results flagged for a closer look

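Among 31 control values examined, 4 had 1 library far from the other 7 by Dixon's test, which chance does in about 1 in 20 groups. *Lox* was at 77.8 CPM and *Loxl1* at 92.5 CPM in Control library 5, above the other Control libraries. The fibroblast list had a mean log2 CPM of 3.93 in Control library 8, and the tendon and ligament list had one of 3.41 in Control library 6, both below the others. Control library 5 also had the highest Control level of *Eln*, *Fbn1*, *Efemp2* and *Mfap5*.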

How the results depend on the processing

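With the osteoclast list as a covariate, 0 of the 10 elastic fibre genes, 0 assembly partners, 0 lysyl oxidases, 0 elastases and 0 receptors passed in edgeR, among 0 of all genes; the cause was not tested. The number of elastic fibre genes called was 3 to 5 under each other alternative and 4 to 5 when 1 library was omitted. Of all genes, 6.3% to 25.8% were called under those alternatives and 15.7% to 26.3% with 1 library omitted. Assembly partners called fell from 6 to 3 without the filter, 2 with the replicate block, 1 with the muscle covariate and 3 with the fibroblast covariate, and ranged from 3 to 6 with 1 library omitted. Without the filter the share of partners called was 12.5%, beside 8.74% of all genes. It was 8.33% beside 11.5% with the block, 4.17% beside 6.3% with the muscle covariate and 12.5% beside 16% with the fibroblast covariate. Receptors called fell from 7 to 3 with the muscle covariate (33.3%, beside 6.3% of all genes). *Loxl2* ranged from 0.50 to 0.78 with 1 library omitted, and the *Eln*/*Fbn1* ratio from -0.61 to -0.31. The *Fbn2*/*Fbn1* ratio was -0.0057 with 5 counts added and ranged from -0.0216 to 0.64 with 1 library omitted. The *Fbln2*/*Fbln1* ratio was -0.0945 without LOXL2_KO libraries 4, 5 and 7, where 1 member correlation passed in place of 7. With library totals 11 member correlations passed in Control and 12 in LOXL2_KO, the median of all genes moved from -0.02 to 0.12.

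Members whose direction turned had no call in either setting: *Fbn2* was -0.0373 with the muscle and -1.09 with the osteoclast covariate, *Fbln1* was 0.0028 without Control library 2 (range -0.41 to 0.0028), *Fbln2* was -0.0628 with the fibroblast covariate and -0.0925 without libraries 4, 5 and 7, and *Fbln5* was -0.23 with the osteoclast covariate. Under library totals the osteoblast and osteocyte list passed (1.504, exact permutation, adjusted p = 0.0434). The smooth muscle list was at 0.14 and the endothelial list at 0.0354 under the same scaling. Control and LOXL2_KO libraries share numbers 1 to 8, and the labels name no pairing. Deviations of same-numbered libraries correlated from -0.36 to 0.168. Without libraries known to be paired for comparison, these values cannot decide whether same-numbered libraries share more than a number. With the number as a block over 16 libraries 1786 genes were called, against 3280 in the same libraries without it, and 4 against 5 of the elastic fibre genes passed. Without the filter 2987 genes were called, with the muscle covariate 1007, and with the fibroblast covariate 2551. *Fbn2* had as few as 5 counts in a library, which limits its precision.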
